A study of Homo sapiens with 6 samples.

Results

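NB4 is a human cell line from acute promyelocytic leukemia that matures towards neutrophil-like cells when given all-trans retinoic acid (ATRA). The comparison described here asks how that ATRA response differed when SMARCD2 was knocked down. It drew on all 6 RNA-seq libraries of the series: a control construct, hairpin 1 and hairpin 2 against SMARCD2, each kept in the solvent DMSO (labelled undifferentiated) and in 1 µM ATRA (labelled differentiated). Of the 13289 genes listed for either treatment, the 12301 listed for both were tested. The rule that decided which genes the deposited tables list is not stated. For each gene the difference was computed as the log2 response to ATRA with both hairpins minus the log2 response with the control construct, so a value below 0 means a lower ATRA level relative to DMSO after knockdown. The hairpins are the replicates of knockdown, with 2 libraries per treatment, while the control has 1 library per treatment, so that construct and library cannot be told apart in the control. How long ATRA was given, whether the libraries came from separate cultures, and whether the lines were pools or clones are not given in the labels. P-values then measure only the spread between these libraries, which may in part be technical.

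ATRA acts through retinoic acid receptors, and in promyelocytic leukemia cells it releases the block that the PML-RARA fusion protein puts on granulocyte genes. SMARCD2 belongs to the BAF chromatin remodelling complexes, which move nucleosomes, and is known for its role in granule formation of neutrophils. Hypoxia-inducible factors (HIF) switch on glycolytic enzymes, glucose transporters and mitophagy genes by binding DNA at a short core such as the letters ACGTG or GCGTG. The amount of the factor is set by oxygen-dependent hydroxylation.

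Levels are given as CPM, counts scaled by the adjusted library size. In DMSO, control cells held 95.5 CPM of SMARCD2, hairpin 1 cells 39.0 CPM and hairpin 2 cells 25.7 CPM. The ATRA levels were 122 CPM for the control construct, 64.2 CPM for hairpin 1 and 35.6 CPM for hairpin 2. Both hairpins lay below the control in both treatments, so the knockdown was partial and deeper with hairpin 2. Neither fitted difference passed the test by edgeR's quasi-likelihood test, with -1.55 in DMSO (adjusted p = 0.39) and -1.29 under ATRA (adjusted p = 0.32). The difference in the ATRA response of SMARCD2 did not pass the test either (0.27 ± 0.46 (SE), adjusted p = 0.91). Its paralog SMARCD1 had a difference of 0.06 ± 0.12. SMARCD3 stood at 40.2, 35.3 and 29.1 CPM in DMSO and at 13.3, 8.04 and 6.51 CPM in ATRA (control, hairpin 1, hairpin 2), a difference of -0.54 ± 0.23 with adjusted p = 0.62.

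Library totals ran from 29291209 counts in the control in DMSO to 58099733 with hairpin 1 in DMSO, and both control libraries had fewer counts than the 4 knockdown libraries. The granule enzyme MPO, which marks promyelocytes, stood between 4298 and 10044 CPM in every library. Among lists drawn up for other blood cells, 11 of 20 monocyte and macrophage genes were in both tables, with a summed level of 423 to 439.1 CPM in DMSO and 1348 to 1497 CPM in ATRA. In ATRA, S100A9 alone held 606, 623 and 442 CPM of that sum (control, hairpin 1, hairpin 2). The eosinophil, basophil and mast cell list, with 13 of 17 genes in both tables, summed to 1720 to 2590 CPM in DMSO and 830.9 to 1253 CPM in ATRA, highest with hairpin 2 in both. LYZ of the monocyte list, and RNASE2 and RNASE3 of this one, are also on the azurophil granule list, so these sums do not mark 1 cell type. Only 4 of 17 erythroid and megakaryocyte genes and 6 of 15 lymphoid genes were in both tables, with sums no higher than 71.26 and 114.6 CPM, and the globin genes HBA1, HBA2 and HBB were in neither table. In bulk RNA, fewer cells of a type and less RNA per cell cannot be told apart.

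Of 12301 genes, 6 passed the test of the difference (Benjamini-Hochberg adjusted p below 0.05), all with a lower ATRA response after knockdown, which is 0.0488% of those tested. None was higher in edgeR's quasi-likelihood test. At an unadjusted p below 0.05, 539 genes (4.38%) lay lower and 440 (3.58%) higher. The 6 genes were ENO2, PFKFB4, ADM, SPP1, BNIP3 and GBE1. Each stood above the control with both hairpins in DMSO and below it with both hairpins in ATRA, as did 1533 of all genes tested (12.5%). The test of the difference favours genes that cross in this way.

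ENO2, ADM, PFKFB4 and BNIP3 belong to a list of hypoxia and glycolysis genes, so the 250 bases before the start of the called genes were read from RefSeq (GRCh38.p14) and searched on both strands for ACGTG, letters that also lie inside the E-box CACGTG. The 3 promoters that hold a match are shown because they carry that core beside a changed ATRA response, with the match in capitals, written 5′ to 3′ on the gene's strand. BNIP3 is at chr10:131981924-131982173 on the minus strand, ENO2 at chr12:6914330-6914579 on the plus strand and GBE1 at chr3:81761646-81761895 on the minus strand.
BNIP3: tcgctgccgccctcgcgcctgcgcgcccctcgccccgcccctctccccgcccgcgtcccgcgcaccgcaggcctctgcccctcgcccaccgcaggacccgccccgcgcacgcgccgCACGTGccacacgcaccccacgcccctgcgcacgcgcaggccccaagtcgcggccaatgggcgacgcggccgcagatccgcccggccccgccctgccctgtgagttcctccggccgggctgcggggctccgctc
ENO2: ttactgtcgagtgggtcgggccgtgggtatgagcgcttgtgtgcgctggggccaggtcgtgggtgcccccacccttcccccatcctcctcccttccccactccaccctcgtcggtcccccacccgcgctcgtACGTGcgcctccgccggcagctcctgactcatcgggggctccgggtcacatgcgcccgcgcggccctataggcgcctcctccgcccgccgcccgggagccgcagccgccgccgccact
GBE1: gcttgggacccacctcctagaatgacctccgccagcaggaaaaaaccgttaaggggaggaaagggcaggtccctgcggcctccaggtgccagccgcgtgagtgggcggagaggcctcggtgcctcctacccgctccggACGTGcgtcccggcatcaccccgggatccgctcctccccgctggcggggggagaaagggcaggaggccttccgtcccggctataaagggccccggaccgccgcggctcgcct
In BNIP3 the match reads the same on both strands and counts as 2, one on each. The windows of ADM, PFKFB4 and SPP1 hold no ACGTG, while those of ADM and PFKFB4 hold GCGTG, which is not marked here. Of the tested genes with a promoter sequence, 2339 of 10076 (23.2%) hold ACGTG in this window, against 14 of 28 of the hypoxia and glycolysis list with a sequence and 3 of the 6 called genes. The related letters GCGTG stood in 42.9% of the list's windows, in 45.1% of all and in 4 of the 6 called genes. A match describes letters and is not a binding site.

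ENO2, the enolase isoform best known from neurons and a glycolytic enzyme, had the largest called difference. It stood at 26.0 CPM in the control in DMSO and at 35.5 CPM in the control in ATRA. With hairpin 1 it went from 40.6 to 11.7 CPM and with hairpin 2 from 40.02 to 10.3 CPM. The response was thus reversed: a log2 change of 0.45 in the control against -1.79 and -1.95 with the hairpins. The difference was -2.32 ± 0.15 (SE) with adjusted p = 0.0053, and both responses passed their own test (adjusted p = 0.012 in the control and 7.0e-07 with knockdown, edgeR). In ATRA alone, ENO2 was the 1 gene of 12301 (0.00813%) that passed the test of knockdown against control, at -1.68 ± 0.10 on the log2 scale with adjusted p = 0.0038. In DMSO no gene passed that test, and ENO2 lay 0.63 ± 0.10 above the control with adjusted p = 0.26.

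PFKFB4, which makes and breaks down a fructose bisphosphate that regulates glycolysis, stood at 32.4 CPM in the control in DMSO and at 117 CPM in ATRA. The hairpins stood at 54.2 and 55.4 CPM in DMSO and at 83.5 and 77.7 CPM in ATRA. The rise was therefore weaker with both, 0.62 and 0.49 on the log2 scale against 1.86 in the control (difference -1.30 ± 0.11, adjusted p = 0.018, edgeR). ADM, the gene of the vasodilator peptide adrenomedullin, stood at 11.001 CPM in the control in DMSO and at 35.5 CPM in ATRA, while the hairpins stood at 19.0 and 19.6 CPM in DMSO and at 22.4 and 21.5 CPM in ATRA. Its response of 1.69 in the control compared with 0.23 and 0.14 with the hairpins (difference -1.50 ± 0.14, adjusted p = 0.037, edgeR), so the induction was almost flat after knockdown.

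BNIP3, a mitochondrial protein that marks mitochondria for autophagy, was the other reversed gene among the 6. It stood at 173 CPM in DMSO and 194 CPM in ATRA in the control, at 259 and 145 CPM with hairpin 1, and at 261 and 128 CPM with hairpin 2. The control response of 0.16 did not pass its own test (adjusted p = 0.17), whereas knockdown cells fell (adjusted p = 7.9e-06), and the difference was -1.10 ± 0.12 (adjusted p = 0.045, edgeR). GBE1, the glycogen branching enzyme, is not on the list. It stood at 121 and 113 CPM in the control (DMSO, then ATRA), at 183 and 89.999 CPM with hairpin 1 and at 173 and 84.8 CPM with hairpin 2. The responses were -1.02 and -1.03 with the hairpins against -0.10 in the control, which did not pass its own test (adjusted p = 0.32), while knockdown cells fell (adjusted p = 2.0e-06). The difference was -0.92 ± 0.10 (adjusted p = 0.045, edgeR).

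SPP1 encodes osteopontin, a secreted phosphoprotein of macrophages and bone, and is also outside the hypoxia list. ATRA raised it in every construct, from 2.40 to 220 CPM in the control, from 5.09 to 165 CPM with hairpin 1 and from 5.20 to 153 CPM with hairpin 2. The response was 6.49 in the control against 5.005 and 4.87 with the hairpins (difference -1.56 ± 0.16, adjusted p = 0.044, edgeR). The larger share of that difference lay in DMSO, where knockdown cells stood 1.10 above the control on the log2 scale, against -0.47 in ATRA. Of the 6 genes, ENO2 passed the test whichever of the 4 knockdown libraries was left out (adjusted p from 0.027 to 0.044). PFKFB4 passed only without hairpin 1 in DMSO (0.047) and had 0.066 without hairpin 2 in DMSO, 0.10 without hairpin 1 in ATRA and 0.16 without hairpin 2 in ATRA. ADM, SPP1, BNIP3 and GBE1 each lost the call without any 1 of the 4, at adjusted p of 0.052 without hairpin 1 in DMSO, 0.082 without hairpin 2 in DMSO, and 0.12 to 0.23 without 1 of the ATRA libraries, although no difference moved by as much as 0.1 on the log2 scale.

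**Figure D1:**
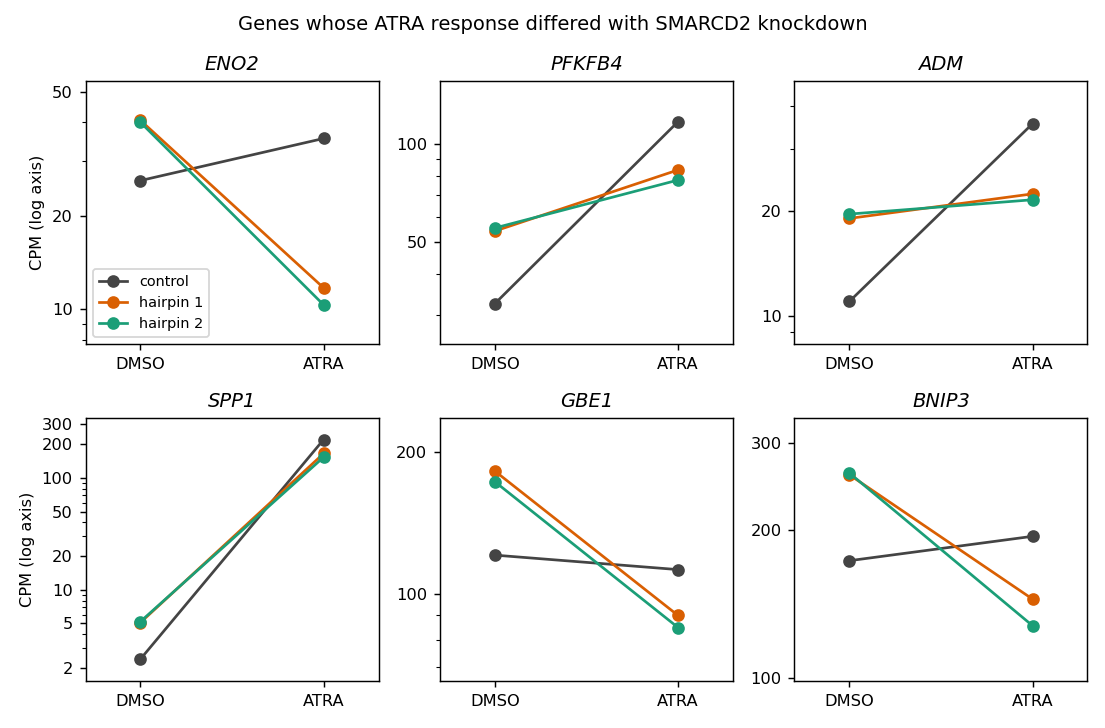
Level in CPM (log axis) in DMSO and in ATRA for the 6 genes whose ATRA response differed by the test. Each point is 1 library, and lines join the control, hairpin 1 and hairpin 2 across treatments. In all 6 panels both hairpins start above the control and end below it; ENO2 ends at 11.7 and 10.3 CPM against 35.5.

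The whole hypoxia and glycolysis list followed the same direction. Of its 36 genes, 33 were tested (CA9 and P4HA2 were listed for DMSO only and EGLN3 for neither treatment). Of the 33, 4 passed the test, all lower, and 27 had an unadjusted p below 0.05 (edgeR), all lower. Over all genes tested, 0.0488% and 4.38% lay lower at these levels. All 33 lay below 0 with both hairpins, against 37.2% of all genes tested (4575 of 12301). The median difference was -0.55, with -0.48 for hairpin 1 and -0.60 for hairpin 2, beside 0.00038 over all genes. The median ATRA response of the list was 0.43 for the control construct, -0.04 for hairpin 1 and -0.16 for hairpin 2. By class, 13 responses were weaker with both hairpins, 11 were reversed, 5 were stronger falls and 4 had hairpins on opposite sides of 0 or otherwise split. Over all genes tested, 33.2% were weaker, 6.49% reversed and 29.5% stronger. The reversed class asks only for opposite signs, so responses near 0 can count in it. The list was chosen with results of these libraries known, so its count is not independent evidence of the direction, and both hairpins are set against the same control libraries.

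Because each hairpin was used in both treatments, a second fit with the construct as a term takes its error from how far the 2 hairpins' responses differ. It called 113 genes lower (0.919%) and 16 higher (0.13%). Of the hypoxia and glycolysis list, 23 of 33 passed it, all lower. This fit leaves 1 residual degree of freedom, and the labels pair libraries by hairpin without saying that they came from the same transduced cells. Adjusted p-values from it are given below as those of the paired fit.

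Among glucose uptake genes, SLC2A3, a high-affinity glucose transporter, stood at 72.2, 97.6 and 96.7 CPM in DMSO (control, hairpin 1, hairpin 2) and at 270, 186 and 139 CPM in ATRA. Its difference was -1.16 ± 0.21, with adjusted p = 0.23 and 0.00018 in the paired fit (edgeR). SLC2A1, the basal transporter, had -0.29 ± 0.11 and adjusted p = 0.59. Both hairpins lay above the control in DMSO and below it in ATRA for both transporters, and SLC2A3 had much the larger gap in ATRA.

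The enzymes of glycolysis differed widely in size. ALDOC, an aldolase, stood at 28.6, 42.2 and 38.1 CPM in DMSO and at 59.0, 37.3 and 39.0 CPM in ATRA, so that its control rise was missing with both hairpins (difference -1.12 ± 0.13, adjusted p = 0.062 and 0.00024 in the paired fit, edgeR). PGK1, phosphoglycerate kinase, had -0.58 ± 0.10 (0.18 and 0.0012 in the paired fit), and LDHA, which turns pyruvate into lactate, had -0.53 ± 0.18 (0.55 and 0.0040). HK2, the inducible hexokinase, had -0.38 ± 0.10, the pyruvate kinase gene PKM -0.46 ± 0.12, and ENO1, the abundant enolase, -0.36 ± 0.10. GAPDH had the smallest difference of the list, -0.05 ± 0.09 with adjusted p = 0.92. From ENO2 to GAPDH the shift was uneven across the genes of 1 pathway, also between isoforms of the same step. The low isoforms ENO2 and ALDOC lay further from 0 than ENO1 (adjusted p = 0.43, edgeR) and ALDOA (-0.43 ± 0.10, adjusted p = 0.42). Of these enzymes only ENO2 passed the main test.

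Targets outside glycolysis lay on the same side. NDRG1, a stress-induced gene, stood at 47.9, 72.8 and 63.7 CPM in DMSO and at 128, 78.6 and 63.5 CPM in ATRA, a control rise of 1.42 that was 0.11 with hairpin 1 and -0.0047 with hairpin 2. Its difference was -1.36 ± 0.19 (adjusted p = 0.079 and 5.3e-06 in the paired fit, edgeR). DDIT4, an inhibitor of mTOR signalling, fell in every construct, from 59.8 to 40.8 CPM in the control, from 89.2 to 26.5 with hairpin 1 and from 79.2 to 22.6 with hairpin 2. The deeper fall with knockdown gave -1.22 ± 0.16 (0.074 and 3.0e-05 in the paired fit). VEGFA, the angiogenic growth factor, was one of few members without a gap in DMSO: 223, 224 and 215 CPM there, and 299, 214 and 185 CPM in ATRA, a difference of -0.56 ± 0.13 (0.40 and 0.0088). P4HA1, a collagen prolyl hydroxylase, had -0.73 ± 0.12 (0.18 and 0.0018), and EGLN1, the oxygen sensor that marks HIF for degradation, had -0.22 ± 0.10 (0.65).

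**Figure D2:**
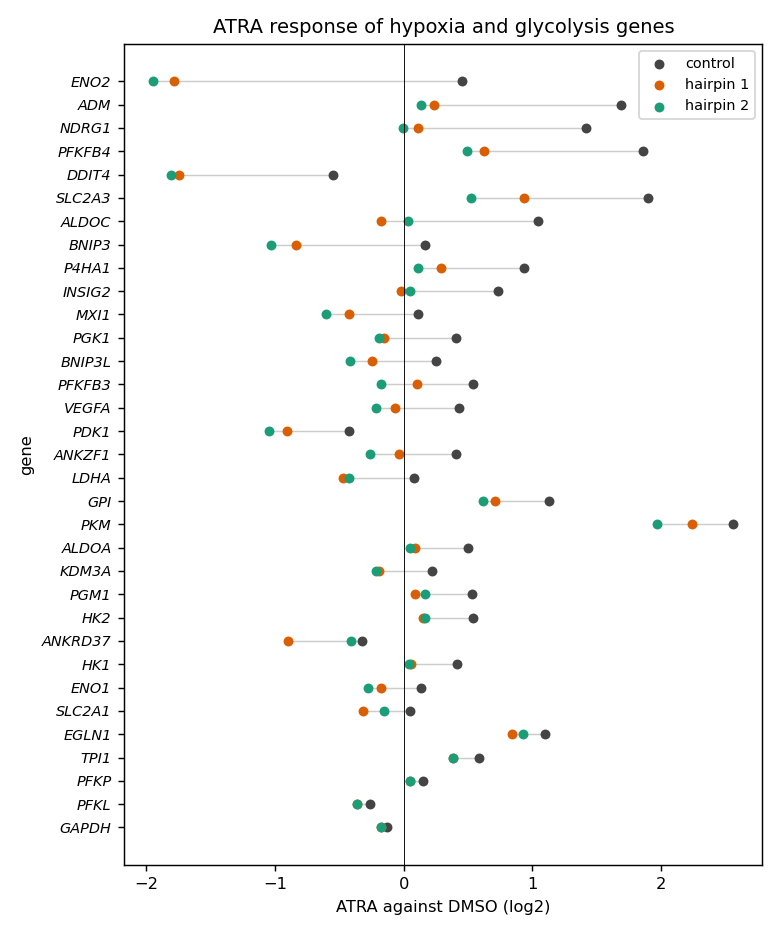
Response to ATRA (log2 CPM in ATRA minus log2 CPM in DMSO) of the 33 tested hypoxia and glycolysis genes, ordered by the fitted difference, with 1 point each for the control, hairpin 1 and hairpin 2. The control point lies to the right of both hairpin points for every gene, from ENO2 (0.45 against -1.79 and -1.95) down to GAPDH.

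The sign of the knockdown effect changed between treatments for most of these genes. In DMSO, 29 of the 33 lay above the control with both hairpins and also below it with both hairpins in ATRA, which is 87.9% against 12.5% (1533) of all genes tested. The median knockdown effect of the list was 0.22 in DMSO and -0.32 in ATRA on the log2 scale. Over the 113 genes called lower in the paired fit, 102 (90.3%) showed this crossing. The same 2 control libraries enter every one of these differences, so the crossing is a description without a test. Run 1 gave 54.65% and 53.11% of the counts of the control libraries and 70.61% to 80.74% of those of the knockdown libraries. With run 1 alone the list's median was -0.56, and with run 2 alone -0.55, all 33 genes lying below 0 in both.

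**Figure D3:**
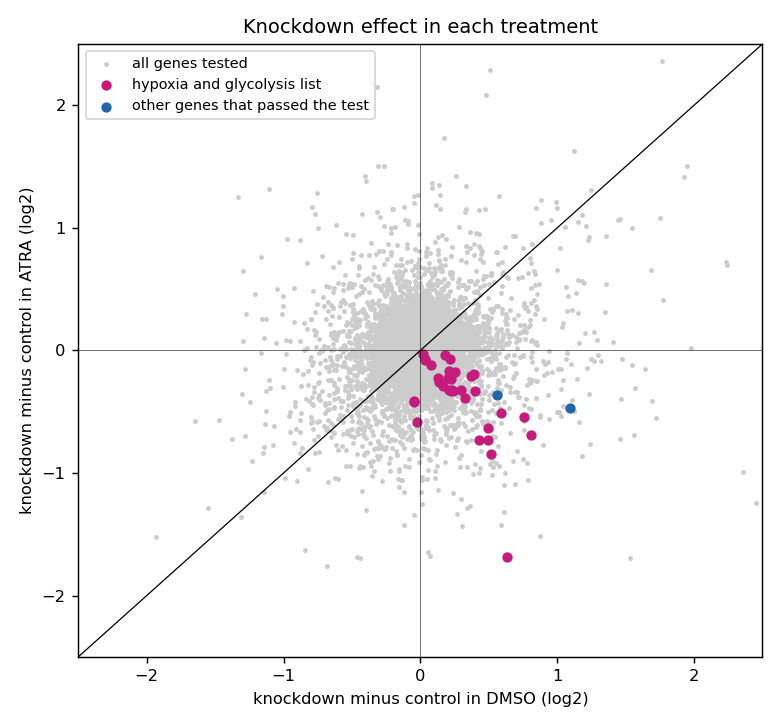
Fitted knockdown effect (log2, both hairpins minus control) in DMSO on the horizontal axis and in ATRA on the vertical axis, 1 point per gene, with equal effects on the diagonal; 5 genes lie outside the axes of ±2.5. The hypoxia and glycolysis genes sit in the lower part, mostly at the lower right, with ENO2 at 0.63 and -1.68, and the other genes that passed the test, GBE1 and SPP1, lie there too.

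Several other genes, most of them of metabolism or stress, had low differences that did not pass the main test but passed the paired fit. They lie outside the rule for named genes and were chosen after their values were seen. PLIN2, which coats lipid droplets, stood at 23.9, 30.3 and 29.9 CPM in DMSO and at 122, 77.8 and 68.0 CPM in ATRA (difference -1.07 ± 0.14, adjusted p = 0.071 and 0.00017 in the paired fit, edgeR). HILPDA, which inhibits lipolysis on those droplets, had -1.03 ± 0.16 (0.11 and 0.0050). AK4, a mitochondrial adenylate kinase, stood at 24.6, 32.9 and 33.4 CPM in DMSO and at 27.9, 19.3 and 19.3 CPM in ATRA (-0.96 ± 0.13, 0.071 and 0.0022). STX1A, a membrane fusion protein of synapses, stood at 25.4, 30.3 and 32.2 CPM in DMSO and at 66.4, 39.2 and 34.3 CPM in ATRA (-1.15 ± 0.15, 0.071 and 0.00036). FAM162A, a mitochondrial protein, was reversed at 0.39 in the control and -0.30 with each hairpin (-0.69 ± 0.14, 0.30 and 0.0099).

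Outside metabolism, no list had a member that passed the main test, and medians are given as a description. Immediate early genes, which respond within minutes to growth signals, had a median difference of -0.44 over 30 tested genes (-0.30 with hairpin 1, -0.57 with hairpin 2). Of them 23 (76.7%) lay lower with both hairpins, against 37.2% of all genes tested. An unadjusted p below 0.05 (edgeR) was reached by 11, all lower, against 4.38% lower over all genes. The paired fit called 2 lower, against 0.919% of all genes. EGR1, a zinc finger factor of monocyte maturation, stood at 7.204, 11.6 and 20.9 CPM in DMSO and at 49.2, 36.0 and 29.5 CPM in ATRA (-1.75 ± 0.44, adjusted p = 0.42 and 0.012 in the paired fit, edgeR). FOS, a subunit of AP-1, stood at 3.12, 5.39 and 5.61 CPM in DMSO and at 15.2, 15.1 and 13.3 CPM in ATRA (-0.92 ± 0.24, 0.42 and 0.088), so its weaker rise lay in the DMSO levels.

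Myeloid transcription factors had a median of -0.25 over 30 genes, with 18 (60%) lower with both hairpins, against 37.2% of all genes tested. EGR1 and GATA2 were among the 3 that the paired fit called lower, against 0.919% of all genes. GATA2, a factor of progenitors, mast cells and basophils, stood at 66.4, 75.2 and 67.4 CPM in DMSO and fell to 9.82, 5.95 and 3.91 CPM in ATRA (-1.09 ± 0.27, adjusted p = 0.42 and 0.0047 in the paired fit, edgeR), so the gap was in ATRA. HDC, the histamine-making enzyme of those cells, had -0.68 ± 0.14 (0.30 and 0.041). The eosinophil, basophil and mast cell list as a whole was mixed. Of its 13 tested genes, 6 lay lower and 4 higher with both hairpins, with a median difference of -0.07. Over all genes tested, 37.2% lay lower and 37.5% higher with both hairpins. The list's median knockdown effect in ATRA was 0.36 (log2). RNASE3, also on that list, had 0.79 ± 0.36 (0.65 and 0.25). The part of GATA2 and HDC in the other results was not tested.

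The granule classes of neutrophils had medians on both sides of 0. Specific granule genes had a median of 0.02 over 12 of 25 genes, and the NADPH oxidase list, the subunits that make superoxide, had -0.04 over 10 genes. Neither had a member that passed either fit. Gelatinase granule and secretory vesicle genes had -0.39 over 12 genes, unevenly between hairpin 1 (-0.13) and hairpin 2 (-0.49). The paired fit called 3 of them lower, PLAUR, MMP9 and ITGAX, against 0.919% of all genes tested. PLAUR, the urokinase receptor, stood at 18.7, 24.5 and 30.0 CPM in DMSO and at 57.5, 45.8 and 39.0 CPM in ATRA (-0.98 ± 0.21, adjusted p = 0.33 and 0.011 in the paired fit, edgeR). MMP9, the gelatinase, fell with ATRA in every construct and had -0.44 ± 0.09 (0.30 and 0.046).

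Azurophil granule genes, of which promyelocytes make many that maturing cells shut down, had a median difference of 0.07 over 20 of 23 genes. The list's median ATRA response was a rise, 0.58 for the control construct, 0.74 for hairpin 1 and 0.75 for hairpin 2. MPO and CTSG, which fell, therefore do not stand for the whole list. MPO stood at 9866, 10044 and 9989 CPM in DMSO and at 4298, 5251 and 5764 CPM in ATRA. The knockdown libraries lay close to the control in DMSO and above it in ATRA, a weaker fall of -0.94 and -0.79 against -1.20 (difference 0.34 ± 0.11, adjusted p = 0.55 and 0.0081 in the paired fit, edgeR). CTSG, the serine protease cathepsin G, stood at 74.5, 71.4 and 62.3 CPM in DMSO and at 2.94, 3.86 and 5.41 CPM in ATRA (0.80 ± 0.29, 0.59 and 0.19). BPI, a bactericidal protein on both granule lists, went the other way at -1.12 ± 0.29 (0.42 and 0.076), from 0.552, 1.31 and 1.37 CPM in DMSO to 576, 668 and 611 CPM in ATRA. With so low a DMSO level, its difference rests on a rate near 1 CPM.

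Genes listed as retinoic acid targets had a median of -0.13 over 29 genes (-0.09 and -0.26 by hairpin). Of them 13 were weaker with both hairpins and 5 stronger, against 33.2% and 29.5% of all genes tested. Among genes that rose at least 2-fold with ATRA, those shares were 42.84% and 29.26%. DHRS3, a retinal reductase that retinoic acid induces, stood at 1.298, 2.49 and 3.17 CPM in DMSO and at 225, 213 and 204 CPM in ATRA (-1.21 ± 0.24, adjusted p = 0.30 and 0.028 in the paired fit, edgeR). Most of that difference lay in the low DMSO levels, with a knockdown effect of 1.10 there and -0.11 in ATRA (log2). STRA6, the retinol uptake receptor, stood at 2.11, 2.32 and 4.72 CPM in DMSO and at 25.0, 13.9 and 14.4 CPM in ATRA (-1.53 ± 0.51, 0.55 and 0.050). Interferon response genes had -0.25 over 39 genes, -0.03 with hairpin 1 and -0.43 with hairpin 2, so that this shift was largely that of 1 hairpin. OAS2, an antiviral enzyme, stood at 69.0, 96.3 and 113 CPM in DMSO and at 719, 779 and 749 CPM in ATRA (-0.51 ± 0.14, 0.43 and 0.036). Both hairpins stood above the control in both treatments, by a fitted 0.60 in DMSO and 0.09 in ATRA (log2).

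Over 16 chemokine and cytokine genes the median was -0.35 (-0.18 and -0.48 by hairpin). CCL5, a chemoattractant of T cells and monocytes, stood at 209, 281 and 242 CPM in DMSO and at 174, 121 and 107 CPM in ATRA. Both hairpins crossed from above to below the control (-0.94 ± 0.15, adjusted p = 0.15 and 7.2e-05 in the paired fit, edgeR). HGF, hepatocyte growth factor, stood at 24.5, 59.2 and 99.4 CPM in DMSO and at 8.22, 11.3 and 14.7 CPM in ATRA (-1.03 ± 0.47, 0.65 and 0.00999), and here both hairpins stayed above the control. Among Fc receptors, chosen after their values were seen, FCGR2B had -1.10 ± 0.16, FCGR2C -0.86 ± 0.11 and FCGR2A -0.76 ± 0.13. None passed the main test (adjusted p = 0.11, 0.071 and 0.19, edgeR), and the paired fit gave 0.0019, 0.0013 and 0.0061. The larger share lay in DMSO, with knockdown effects of 0.90, 0.81 and 0.67 there against -0.20, -0.05 and -0.10 in ATRA (log2). These near-identical paralogs can share reads, so their values are not independent of each other.

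Sterol synthesis had a median of -0.11 over 24 genes. Of them 15 were weaker with both hairpins and 1 stronger, against 33.2% and 29.5% of all genes tested. The unfolded protein and amino acid list had -0.01 over 26 genes, with TRIB3 lower (-0.64 ± 0.24, adjusted p = 0.59 and 0.0034 in the paired fit, edgeR) and the chaperone CALR higher (0.38 ± 0.11, 0.49 and 0.048). Apoptosis and p53 genes had -0.05 over 23 genes, MYC targets and ribosome biogenesis 0.02 over 30, BAF family subunits 0.04 over 29 and stem and progenitor markers 0.06 over 12. Metallothioneins, small metal-binding proteins, had -0.10 over 8 genes. Monocyte and macrophage markers had -0.14 over 11 genes, and eosinophil, basophil and mast cell markers -0.07 over 13, while the short erythroid and lymphoid lists of 4 and 6 genes had -0.24 and -0.42.

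Cell cycle genes were the list furthest above 0. Their median difference was 0.18 over 39 genes, 0.17 with hairpin 1 and 0.21 with hairpin 2, and 25 of 39 lay higher with both hairpins, against 37.5% (4618) of all genes tested. None passed either fit, and 10 had an unadjusted p below 0.05 (edgeR), all higher, against 3.58% higher at that level over all genes. The list's median ATRA response was -0.34 for the control construct, -0.21 for hairpin 1 and -0.29 for hairpin 2. Of the 39 responses, 23 were weaker with both hairpins. That class held 33.2% of all genes tested and 38.29% of genes that fell at least 2-fold with ATRA. MKI67, the proliferation antigen, stood at 291, 303 and 311 CPM in DMSO and at 318, 433 and 429 CPM in ATRA (0.36 ± 0.09, adjusted p = 0.42 and 0.070 in the paired fit, edgeR). Both hairpins stood above the control in ATRA, where the hairpins lay close to each other. Unlike the list's median, MKI67 rose with ATRA, by 0.13 in the control and by 0.52 and 0.46 with the hairpins (log2).

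**Figure D4:**
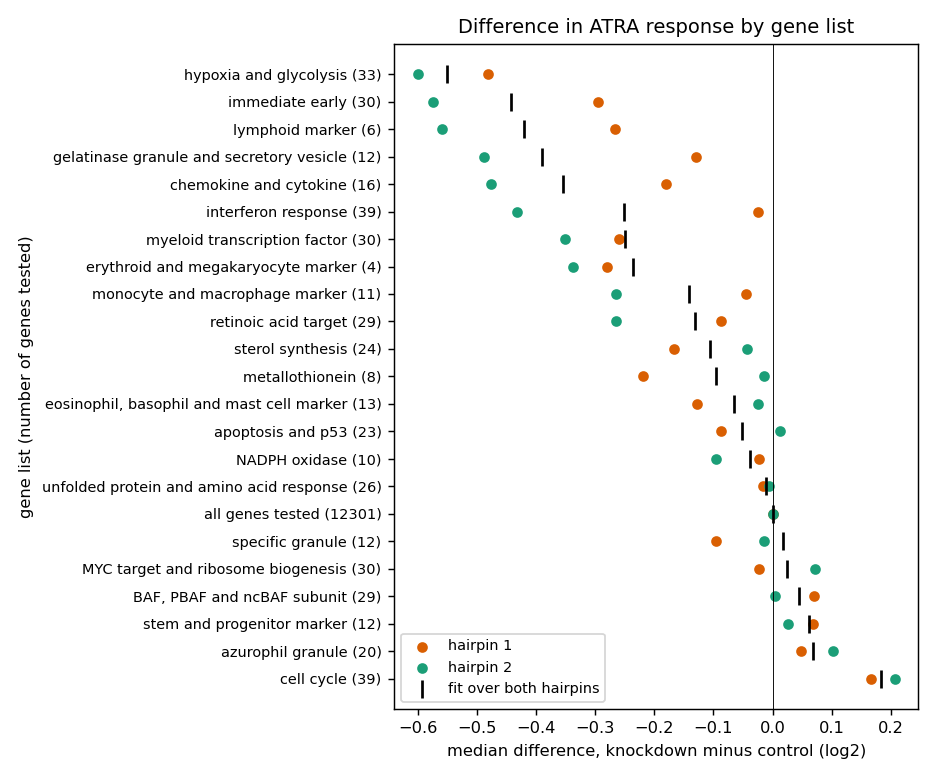
Median difference in ATRA response (log2, knockdown minus control) of each gene list, with the number of genes tested in brackets; dots give hairpin 1 and hairpin 2 and the bar the fit over both. The hypoxia and glycolysis list lies lowest at -0.55, cell cycle highest at 0.18, and all genes at 0.00038.

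No gene had a higher ATRA response after knockdown by the main test, DESeq2 called 1, limma-voom none, and the paired fit 16. PLD4, an endolysosomal nuclease, stood at 3.96, 3.53 and 5.29 CPM in DMSO and at 18.2, 30.9 and 62.2 CPM in ATRA (1.22 ± 0.65, adjusted p = 0.67 in the main test and 0.021 in the paired fit, edgeR). In ATRA, hairpin 2 stood well above hairpin 1, and the control lay below both. TGFA, a ligand of the EGF receptor, stood at 7.95, 5.46 and 4.74 CPM in DMSO and at 17.9, 23.1 and 28.0 CPM in ATRA (1.15 ± 0.24, 0.31 and 0.019), below the control first and above it after. CYFIP2, a subunit of the WAVE actin complex, stood at 18.2, 12.3 and 10.1 CPM in DMSO and at 127, 131 and 128 CPM in ATRA (0.72 ± 0.16, 0.34 and 0.00999), so its difference lay in DMSO.

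The other 13 were BRI3BP, SPDYE3, CST3, MLC1, BRCA2, ATP2B4, ARSB, MBNL3, CLEC11A, AGO1, ITPR2, CALR and MPO. ARSB, a lysosomal sulfatase, stood at 49.8, 44.9 and 43.4 CPM in DMSO and at 47.7, 60.0 and 64.0 CPM in ATRA (0.55 ± 0.11, adjusted p = 0.30 and 0.034 in the paired fit, edgeR). CST3, the protease inhibitor cystatin C, stood at 24.5, 20.1 and 27.9 CPM in DMSO and at 24.4, 30.2 and 48.2 CPM in ATRA (0.72 ± 0.40, 0.68 and 0.032). ITPR2, an inositol trisphosphate receptor, stood at 227, 199 and 204 CPM in DMSO and at 711, 826 and 839 CPM in ATRA (0.40 ± 0.09, 0.36 and 0.034). Of the 16, 7 were weaker falls, 5 were stronger, 2 were reversed and 2 were split. DAPK2, a death-associated kinase that did not pass either fit, had 1.05 ± 0.27 (0.42 and 0.052).

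ATRA changed most genes in both states: 7252 of 12301 (59%) passed the test of the response in the control and 8603 (69.9%) with knockdown. The control response sets 1 library against 1 and the knockdown response 2 against 2, so these shares cannot be compared between the states. Taking the average of both states, 2629 genes (21.4%) responded at least 2-fold with an adjusted p below 0.05 in edgeR's quasi-likelihood test. Among the 1480 that rose, 634 (42.84%) rose less with both hairpins and 433 (29.26%) rose more, with a median difference of -0.06, or -0.0044 for hairpin 1 and -0.11 for hairpin 2. Among the 1149 that fell, 440 (38.29%) fell less and 426 (37.08%) fell more, with a median of 0.01. Because that average is taken over both states, reversed responses largely cancel in it, and a reversed gene such as ENO2 is not counted as responding. Of the 9672 other genes, 798 (8.251%) were reversed, at responses mostly near 0. Over all 12301, 33.2% were weaker, 29.5% stronger and 6.49% reversed with both hairpins, and these shares are a description, since both hairpins are compared with the same 2 control libraries.

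**Figure D5:**
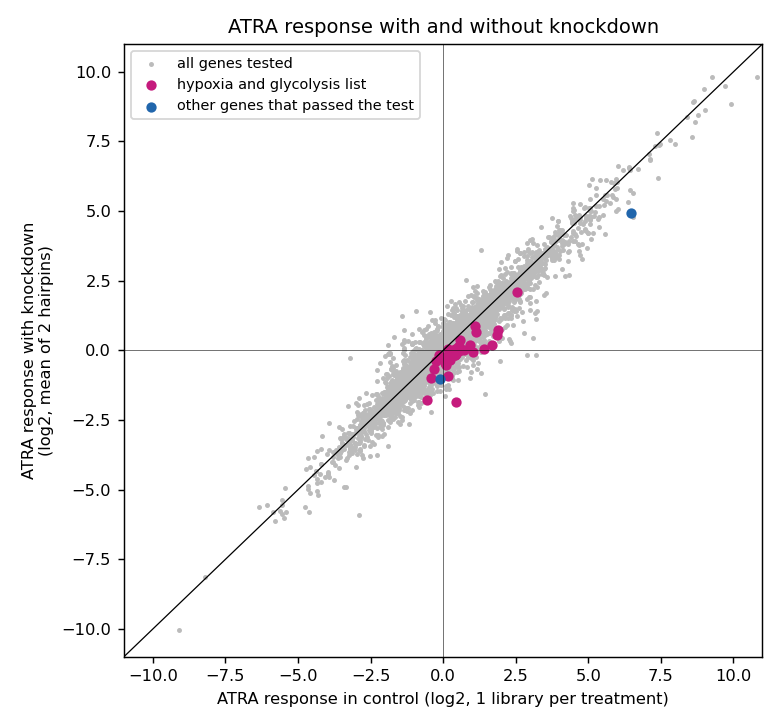
Response to ATRA in the control (log2, horizontal axis) and with knockdown (log2, mean of both hairpins, vertical axis), 1 point per gene, with equal responses on the diagonal. Most of the 12301 genes follow the diagonal; the hypoxia and glycolysis genes lie below it near the middle, and SPP1 lies below it at 6.49 in the control.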

How the data were processed

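RNA-seq of 6 NB4 libraries was used. Tables of raw gene counts were deposited by the authors, 1 for each treatment, where every library has 2 columns; these were read as its sequencing runs and summed. The authors' 12 columns of normalized values were not used. The build GRCh37.p13 and the tools STAR, bcl2fastq, DESeq2 and Picard 2.5.0 are named, per the submitters' processing notes, without their roles. The counting tool, its use of strand and the filter that decided which genes are listed are not given in the labels. Of the genes, 537 were listed for ATRA only and 451 for DMSO only.

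The 12301 shared genes were fitted with edgeR 4.0.16 in R 4.3.3 (4 groups, full table totals, TMM, filterByExpr, which removed none, quasi-likelihood test, Benjamini-Hochberg threshold 0.05). Its error rests on the spread between hairpins (2 residual degrees of freedom), and the single control libraries are taken to vary as much. SE is the log2 difference divided by the square root of F. Responses per construct are log2 CPM with a prior count of 2. A response is weaker or stronger where both hairpins keep its sign and are smaller or larger, reversed where both have the other sign, and split otherwise. The paired fit adds the construct as a term, since the titles name the same hairpin in both treatments. Across 9467 genes of at least 10 CPM, the DMSO gap between hairpins had r = 0.266 with the ATRA gap; deviations from the treatment mean had r = 0.186 (hairpin 1), 0.21 (hairpin 2) and 0.0782 (control). Figures were drawn with matplotlib 3.10.9. The test was checked on simulated data.

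Named genes were the called ones, the 12 per direction with the largest smaller-hairpin difference, up to 4 per list and up to 6 per direction from the paired fit, of at least 10 CPM in a library, and only some are described. Further list members and genes that passed the paired fit are described outside this rule. Genes, the 22 lists and tests were chosen with earlier results of these data known. Alternatives were DESeq2 1.42.0, limma-voom 3.58.1, other scalings and filters, single runs and each knockdown library left out.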

Additional observations from a re-analysis of the deposited data

Results flagged for a closer look

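For 6 genes the response to ATRA differed between knockdown and control cells by the test of the difference itself (edgeR's quasi-likelihood test, Benjamini-Hochberg adjustment). The differences, knockdown minus control on the log2 scale, were -2.316 for ENO2, -1.299 for PFKFB4, -1.505 for ADM, -1.564 for SPP1, -1.098 for BNIP3 and -0.9226 for GBE1, each with both hairpins on the same side of the control. For ENO2 the adjusted p was 0.0053, and for the other 5 it lay between 0.018 and 0.045.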

How the results depend on the processing

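The 6 genes called lower became 113 with the construct as a replicate block, 47 with DESeq2, 2 with limma-voom (ENO2 and PFKFB4) and 1 to 2 with a knockdown library left out. The count called higher, 0, became 16 with the replicate block and 1 with DESeq2. Of the hypoxia and glycolysis list, 4 members were called lower in the main test, 23 with the replicate block, 13 with DESeq2, 2 with limma-voom and 1 to 2 with a library left out, settings added for this list after seeing the data. Its median lay between -0.62 and -0.46 with a library left out, and all 33 members stayed below 0 in each setting run. All 6 calls were kept with DESeq2 size factors, total counts, no filter on low counts and a minimum of 1 CPM in every library. Run 1 alone called 4 genes, all among the 6, and run 2 alone called 9, with 4 of the 6. ENO2 was called in each alternative. The unfolded protein list's median was -0.012 in the main fit, 0.00055 with total counts and -0.022 with DESeq2 size factors. Signs turned for genes that were not called: with a library left out the SMARCD2 difference in ATRA response ranged from -0.23 to 0.61 (-0.23 without hairpin 1 in ATRA, -0.00564 without hairpin 2 in DMSO), SMARCD1 from -0.041 (without hairpin 1 in DMSO) to 0.13, CHI3L1 from -0.029 to 0.38, MT1A from -0.40 to 0.074, SLC30A1 from -0.26 to 0.042 and MT2A from -0.38 to 0.088, the last 4 turning without hairpin 1 in ATRA. With run 2 alone CX3CR1 was -0.025 and MS4A7 0.64, and with run 1 alone TPSAB1 was 0.29. The causes were not tested.

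Leaving out a control library was not possible, since each treatment has 1. Scaling moved the median of all genes from 0.00038 to 0.013 with total counts and to -0.0098 with DESeq2 size factors. Genes near 1 CPM in DMSO, such as BPI, have differences that depth limits, with totals from 29291209 to 58099733 counts.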
